A study of Macaca mulatta and Mus musculus and Rattus norvegicus with 12 samples.

Results

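Immediate early genes are transcribed within minutes of a signal reaching the cell, before any new protein has been made. The FOS and JUN proteins pair through leucine zippers to form AP-1, a factor that binds its DNA site as a dimer, while the EGR proteins bind GC-rich sites through zinc fingers. In bone, AP-1 members are known as regulators of osteoblasts and osteoclasts, and immediate early genes respond to mechanical loading and parathyroid hormone. The 10 genes described here are FOS, FOSB, FOSL2, JUN, JUNB, JUND, EGR1, EGR2, ATF3 and NR4A1, and they were compared between the calvaria (the roof of the skull) and the tibia (the shin bone). They were taken as the rows that carry these symbols in the deposited tables of mouse, rat and rhesus macaque. All 10 had a row among the 38599 symbols of the mouse table and the 35259 of the rat table. In macaque 7 of the 10 had a row among 28641 symbols, and JUN, JUNB and JUND were absent under their symbols. Macaque rows LOC716452, LOC717837 and LOC720182 carry the NCBI gene IDs of JUN, JUNB and JUND in a newer macaque annotation, and their values are given separately.

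The libraries held poly(A)+ RNA of bone prepared to enrich osteocytes, which sit in the mineralised matrix. Mouse had 2 libraries of calvaria (M4, M8) and 2 of tibia (M5, M7) from C57BL6 animals aged 4 months, each pooled from 3 animals. Rat had 1 calvaria (R1) and 1 tibia (R3) library of Wistar animals aged 6 months, each pooled from 2 animals, so the rat values have no replicates. Macaque had 3 libraries of calvaria (G1, G3, T1) and 3 of tibia (G2, G4, T2), each of 1 animal, labelled 4 to 6 months old although the study's methods give the same figures in years. The animals were female and untreated. Periosteum was stripped off, surface cells were loosened by a short collagenase digestion, and marrow was spun out of the rodent tibias only. Rodent calvaria was cut without its sutures and away from marrow spaces. The methods, and not the labels, give the libraries of a site as separate pools or animals. They also give calvaria and tibia libraries as pairs from the same animals, without saying which libraries form a pair. The main tests did not use the pairs, and p-values measure only the spread between the libraries.

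Library depth was 13934813 to 16826535 reads on named genes in mouse, 14255423 and 12233256 in rat and 7951585 to 10342459 in macaque. Levels are given as CPM, the reads of a gene per 1000000 reads of the library, scaled by TMM factors in mouse and macaque. The labelled cell type was checked with 6 osteocyte markers (SOST, DMP1, MEPE, PHEX, FGF23 and PDPN), all of which had rows. Their summed level was 1041 to 1847 CPM in mouse calvaria against 7623 to 10369 in tibia, 500.2 against 7242 in rat and 4917 to 5779 against 7777 to 17530 in macaque. FGF23 was at 0 in both rat libraries. Markers of neutrophils (S100A8, S100A9, ELANE, MPO and LTF) ran the other way, at 86240 to 112604 CPM in mouse calvaria against 51774 to 59111 in tibia, 74582 against 40271 in rat, and 18267 to 30546 against 3350 to 6786 for the 4 with a row in macaque. Osteocyte markers were thus lower and neutrophil markers higher in every calvaria library of all 3 species than in its tibia libraries. The neutrophil sum was above the osteocyte sum at both sites of mouse and rat and in macaque calvaria, and below it in macaque tibia. Neutrophil RNA therefore remained in the libraries, although marker sums are not shares of cells. In macaque calvaria, markers of erythroid cells (3 of 4 with a row, 24759 to 36098 against 6747 to 9713 CPM), platelets (240.6 to 353.7 against 14.5 to 30.0, GP9 at 0 in tibia) and B cells (27.1 to 31.02 against 5.82 to 13.6, CD79B at 0) were also higher without overlap. In mouse those of platelets, B cells and macrophages were higher in calvaria without overlap, and those of chondrocytes (12.04 to 64.6 against 495.7 to 607.4 CPM), adipocytes (8.61 to 12.99 against 51.2 to 69.5, PLIN1 at 0 in calvaria) and endothelial cells were lower. Macaque T cell markers were likewise higher in calvaria without overlap (12.2 to 12.8 against 3.39 to 11.2 CPM, CD3E at 0). Chondrocyte markers in macaque (2 of 3 with a row) were higher in calvaria without overlap, unlike in mouse, at 9.53 to 11.03 against 5.36 to 8.64 CPM. Osteoblast and osteoclast markers overlapped between sites in both species, as did T cell markers in mouse. The part of these cells in the member differences below was not tested. In bulk RNA, fewer cells of a type and less RNA per cell cannot be told apart.

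Reads of the length used could tell the mouse members apart from each other. Rat and macaque sequences were not checked. In the mouse transcripts of GENCODE vM21, none of the 125-base stretches of the 10 genes occurred in a gene elsewhere. The 81 coding bases in which mouse Fos and Fosb have the most letters in common are shown because the contrast between these 2 genes carries much of what follows. They encode part of the basic region through which both proteins touch DNA, and they lie on GRCm38 at chr12:85475607-85475687 (plus strand) and chr7:19306571-19306651 (minus strand). Capitals mark the letters that both genes share, and lower case marks those that differ.
Fos: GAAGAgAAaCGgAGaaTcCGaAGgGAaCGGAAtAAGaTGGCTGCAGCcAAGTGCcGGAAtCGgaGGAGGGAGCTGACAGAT
Fosb: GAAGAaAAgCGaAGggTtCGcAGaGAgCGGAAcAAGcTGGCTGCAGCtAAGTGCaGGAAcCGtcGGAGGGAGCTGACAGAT
Even here 16 of 81 bases differed, and the longest run in common was 17 bases, so that no read of 125 bases could match both exactly. Among the Jun genes the longest shared coding stretch was 20 bases, between Jun and Jund. Overlapping genes were a different matter, since the counting did not use strand. Antisense gene Gm11175 covered 877 of the 1668 exonic bases of Jund in that annotation, Junos covered 232 of those of Jun, and Prdx2 covered 173 of those of Junb. Reads of these 3 members cannot be told apart from those of their partners in the shared bases, whereas the other 7 shared no exonic base with another gene.

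FOSB is a FOS family member that also yields a shorter splice product, which gene counts do not separate. Its level was higher in the calvaria libraries than in the tibia libraries of mouse and rat. In macaque FOSB had few reads on its row, all of them in calvaria. In mouse it had 112 and 113 reads in M4 and M8 (calvaria) and 29 and 19 reads in M5 and M7 (tibia). Its level was 7.17 and 8.61 CPM in calvaria against 1.64 and 1.30 CPM in tibia, a mean of 7.89 ± 1.02 (SD, n = 2) against 1.47 ± 0.240 (SD, n = 2). The libraries of the 2 sites did not overlap, and the fitted level was 5.31-fold higher in calvaria (log2 fold change 2.41, SE 0.393, edgeR adjusted p = 0.184), which passed the study's thresholds (adjusted p below 0.2, fold change above 1.1). FOSB was the 1 member of 10 called in mouse, where 0.443% of all 22339 genes tested were called and 0.0448% were called higher in calvaria and 0.398% higher in tibia. FOSB took 2.53% and 3.66% of the reads of the FOS family in calvaria (95% Wilson intervals 2.11 to 3.04% and 3.05 to 4.38%), against 0.880% and 0.719% in tibia (0.614 to 1.26% and 0.461 to 1.12%). The call depended on the settings. Its adjusted p was under 0.2 in 6 of the 15 other fits that gave one, and the fits that leave out tibia library M5 or M7 gave 1.00 or 0.999, while the log2 fold change stayed between 2.26 and 2.59.

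In rat FOSB had 221 reads in calvaria and 20 in tibia, or 15.5 against 1.63 CPM. The log2 ratio with 1 read added was 3.18, with a 95% counting interval of 2.58 to 3.98 that covers counting error only. This was past the study's rat threshold of 2, as were the ratios of 9.69% of the 19234 genes compared, and of 1.55% in the direction of calvaria. Rat FOSB was the highest of the 10 member ratios.

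In macaque only the row listed as FOSB was counted, so reads of the gene on any row under another name are missed. This row was close to the limit of detection. Its reads numbered 5, 1 and 3 in G1, G3 and T1 of calvaria, and each of the 3 tibia libraries had 0. Over the group that is 9 reads of 26324795, or 0.342 CPM of the unscaled total with an exact Poisson interval of 0.156 to 0.649, against 0 of 26427015, which allows up to 0.114 CPM (3 counts). On this row FOSB was therefore at least 3.01-fold higher in these macaque calvaria libraries when the calvaria rate is taken as measured. Without G1, which holds 5 of the 9 reads, this bound was 1.96-fold, and from the lower end of the Poisson interval it was 1.38-fold. It entered the fit through its calvaria reads alone and was called at an edgeR adjusted p of 0.193. The macaque libraries pair by neighbouring numbers (G1 with G2, G3 with G4 and T1 with T2), and with these pairs as a block the adjusted p was 0.270, and leaving out any 1 library gave 0.219 to 0.367. The macaque gene model of FOSB is 1042 bases long, compared with 3963 bases in mouse and 3984 in rat, and the part of model length in the low count was not tested.

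**Figure D1:**
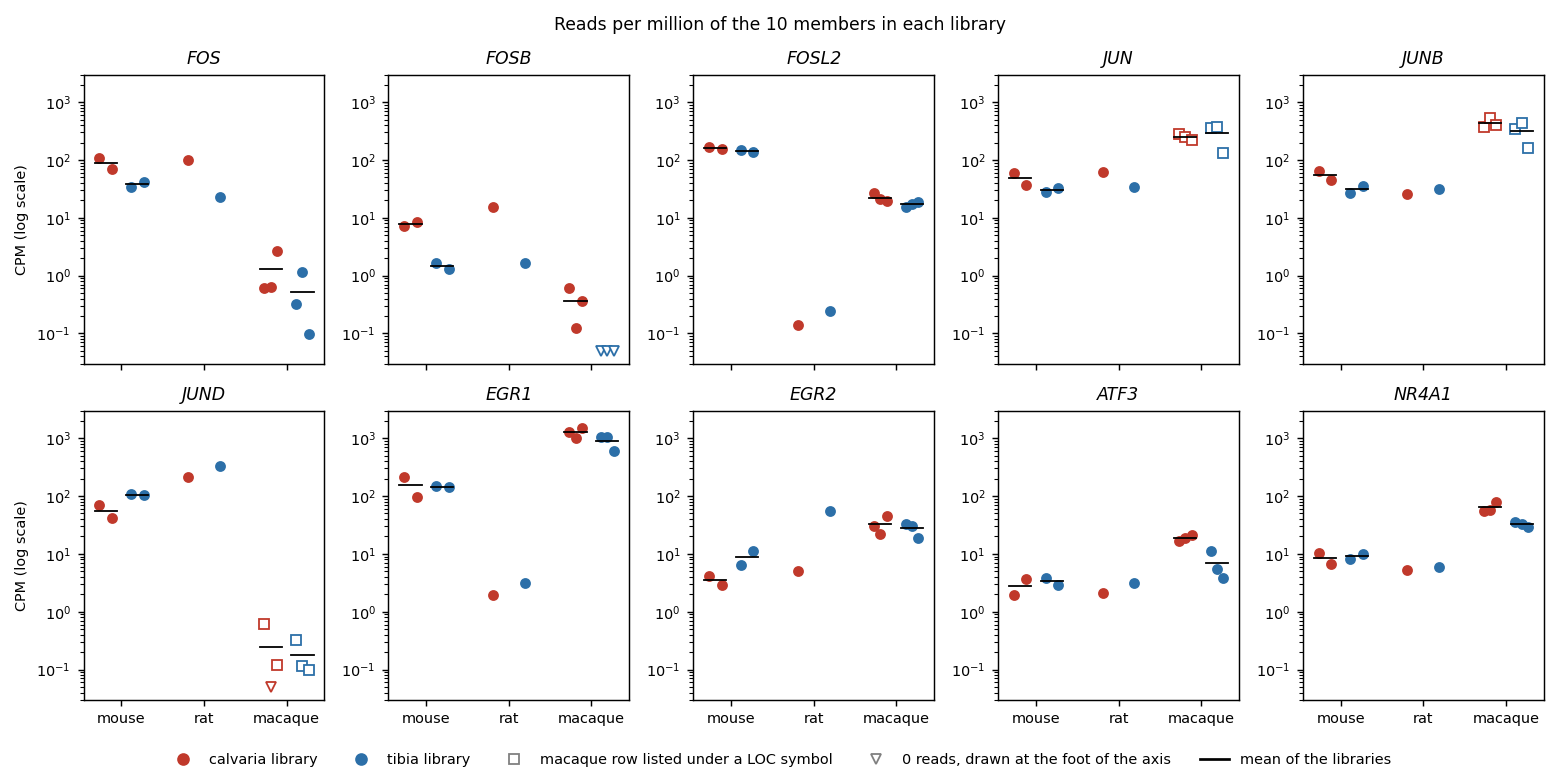
Level (CPM, log axis) of the 10 members in each library of mouse, rat and macaque, calvaria in red and tibia in blue, with a black line at the mean of the libraries where a site has more than 1. FOSB in mouse lies at 7.17 and 8.61 CPM in calvaria and 1.64 and 1.30 CPM in tibia, and the open triangles are libraries with 0 reads.

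FOS, the archetype of the family, was the only other member past a threshold in the calvaria direction in a rodent. In mouse it stood at 107.6 CPM in M4 and 69.0 in M8, against 34.2 in M5 and 41.8 in M7. The sites did not overlap, yet the log2 fold change of 1.22 (SE 0.286) had an edgeR adjusted p of 0.412 and was not called, while the edgeR exact test gave 0.0933 and DESeq2 0.0491, rules that called 2.02% and 2.09% of all genes. Rat FOS was 100.5 CPM in calvaria against 22.5 in tibia, a log2 ratio of 2.16 whose counting interval of 1.97 to 2.35 reached below the threshold of 2. The macaque row listed as FOS was low, with 5, 5 and 22 reads in G1, G3 and T1 and 3, 10 and 1 reads in G2, G4 and T2. The sites overlapped on this row and no difference was detectable at its depth (edgeR adjusted p = 0.412). As for FOSB, reads of the gene on any row under another name are missed. The macaque model of FOS is 1143 bases long, equal to the coding length of mouse Fos in GENCODE vM21, whereas the mouse row is 2093 bases long.

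FOSL2, the FOS family member known from osteoblast and osteoclast differentiation, was not called in any species. Its mouse level was 168.2 and 157.5 CPM in calvaria and 150.3 and 137.8 CPM in tibia, a log2 fold change of 0.18 (SE 0.199, edgeR adjusted p = 0.788). In macaque the calvaria libraries had 19.4 to 26.5 CPM and the tibia libraries 15.1 to 18.8 CPM, which did not overlap but were not called (0.39, SE 0.236, adjusted p = 0.368). Rat FOSL2 had 2 reads in calvaria and 3 in tibia on a row of 1014 bases, compared with 5864 bases in mouse, too few to read its ratio alone, although it enters the rat summaries over all members.

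The 3 JUN genes encode the partners of the FOS proteins. In mouse JUN stood at 60.02 and 37.3 CPM in calvaria against 28.1 and 32.1 CPM in tibia, and JUNB at 65.7 and 44.7 CPM against 26.8 and 34.96 CPM. JUND, the member with the most constant expression in most cells, lay the other way at 69.5 and 41.5 CPM in calvaria against 106.8 and 105.3 CPM in tibia. None of the 3 overlapped between sites, and none was called, with log2 fold changes of 0.69 (SE 0.292) for JUN, 0.84 (SE 0.284) for JUNB and -0.93 (SE 0.290) for JUND and edgeR adjusted p of 0.6998, 0.618 and 0.605. In total 5 members did not overlap with calvaria higher in mouse (FOS, FOSB, FOSL2, JUN and JUNB) and 2 with tibia higher (JUND and EGR2). Over all genes tested in mouse, 35.7% did not overlap, 17.3% with calvaria higher and 18.4% with tibia higher.

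Within the JUN family JUND made up 35.6% and 33.6% of the reads in mouse calvaria (95% Wilson intervals 33.9 to 37.3% and 31.3 to 35.9%), against 66.0% and 61.1% in tibia (64.3 to 67.7% and 59.2 to 63.0%). In rat the JUND share was 71.3% in calvaria and 83.3% in tibia, with intervals of 69.9 to 72.6% and 82.2 to 84.3%. The JUND share was thus lower in calvaria in both rodents, and these intervals cover counting error only. By level, rat JUN was 62.1 against 33.9 CPM, JUNB 25.3 against 31.9 CPM and JUND 217.0 against 328.0 CPM, with log2 ratios of 0.87, -0.34 and -0.60, none past the threshold. The rows listed under LOC symbols in macaque were not called. JUN had 283.2, 251.3 and 224.5 CPM in G1, G3 and T1 against 361.8, 369.8 and 132.3 CPM in G2, G4 and T2 (log2 fold change -0.19, SE 0.262, adjusted p = 0.712). JUNB had 371.2, 537.6 and 398.4 CPM against 347.9, 432.8 and 161.8 CPM (0.47, SE 0.252, adjusted p = 0.292), and with the pairs as a block its adjusted p was 0.114 at a log2 fold change of 0.56, which is called. JUNB was also called without G4 (0.117) and with the letter of the library name as a term (0.0756), and JUN was called lower in calvaria without T2 (-0.52, adjusted p = 0.0345). The row of JUND held 5, 0 and 1 reads in calvaria and 3, 1 and 1 in tibia, too few for a comparison. Libraries G and T differed here, since JUN was lower in calvaria among the G libraries (log2 ratio of means -0.45) and higher in the T pair (0.76).

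**Figure D2:**
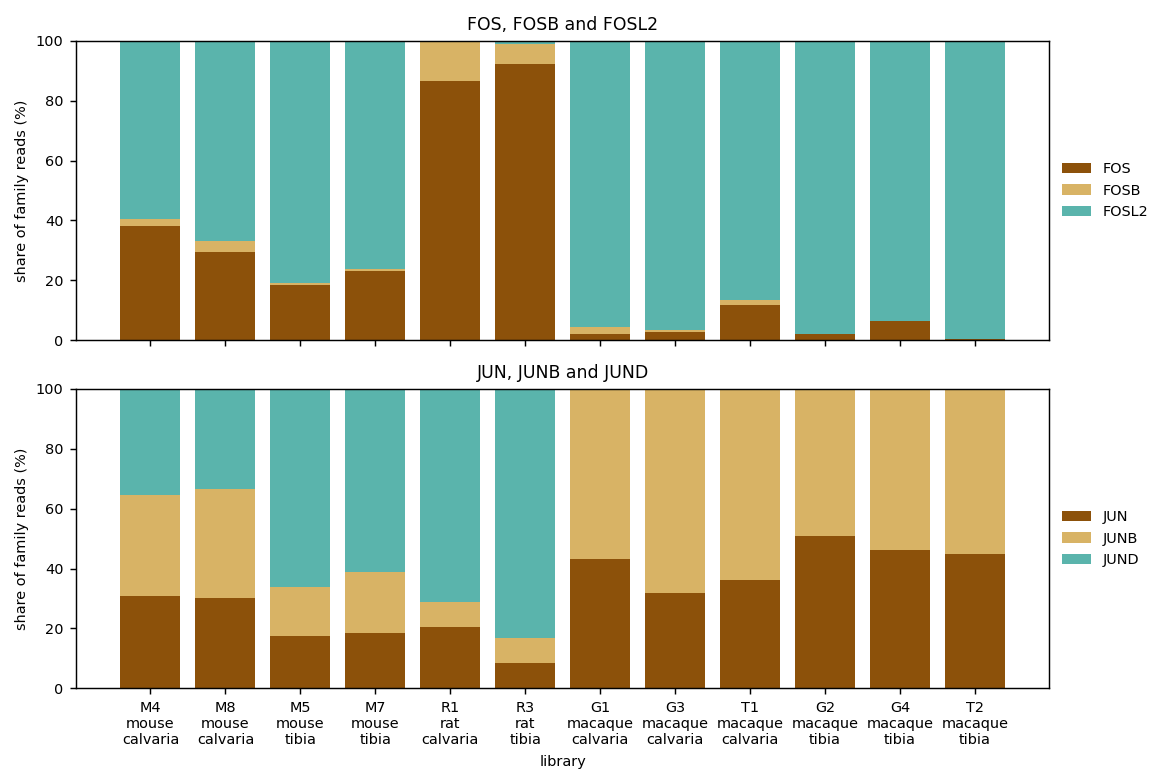
Share of reads (%, stacked to 100) taken by each gene within the FOS family (top) and the JUN family (bottom) in each of the 12 libraries. JUND takes 33.6 to 35.6% of its family in mouse calvaria and 61.1 to 66.0% in mouse tibia, and the JUN family of macaque is drawn from rows listed under LOC symbols.

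EGR1 and EGR2 encode zinc finger factors, and EGR2 is also known from myelination and bone formation. In mouse EGR1 spread more within calvaria than between sites, at 213.2 and 97.3 CPM in calvaria and 147.6 and 142.2 CPM in tibia (log2 fold change 0.10, SE 0.370, edgeR adjusted p = 0.935). EGR2 was at 4.16 and 2.90 CPM in calvaria and 6.39 and 11.4 CPM in tibia, without overlap. EGR2 made up 1.91% and 2.89% of the reads of the 2 genes in calvaria and 4.15% and 7.44% in tibia. Its log2 fold change of -1.32 (SE 0.431) had an adjusted p of 0.618 and was not called. In rat EGR2 had 72 reads in calvaria and 666 in tibia, or 5.05 against 54.4 CPM. The log2 ratio was -3.41, with a counting interval of -3.80 to -3.08, and EGR2 was the 1 member past the rat threshold in the direction of tibia, where 8.14% of all genes lay. Rat EGR1 had 28 and 38 reads on a row of 1527 bases, with a log2 ratio of -0.65 and an interval of -1.42 to 0.08.

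Macaque EGR1 stood at 1307, 1023 and 1503 CPM in G1, G3 and T1 and 1031, 1061 and 594.5 CPM in G2, G4 and T2. The sites overlapped by calvaria library G3. EGR1 was called higher in calvaria at 1.43-fold (log2 fold change 0.51, SE 0.203, edgeR adjusted p = 0.131), and the call was lost without G1 (0.326), G3 (0.228), T1 (0.442) or T2 (0.259). The log2 ratio of means was 0.15 among the G libraries and 1.34 in the T pair. Macaque EGR2 was at 30.9, 22.3 and 44.8 CPM in calvaria and 33.1, 30.7 and 19.0 CPM in tibia and was not called (0.25, SE 0.265, adjusted p = 0.631), with log2 ratios of -0.26 among the G libraries and 1.24 in the T pair.

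ATF3, a factor of the ATF family induced by cell stress, and NR4A1, an orphan nuclear receptor, were the members with the firmest differences in macaque. ATF3 stood at 16.5, 19.2 and 20.8 CPM in G1, G3 and T1 against 11.3, 5.48 and 3.79 CPM in G2, G4 and T2. The sites did not overlap, and ATF3 was 2.77-fold higher in calvaria (log2 fold change 1.47, SE 0.327, edgeR adjusted p = 0.00555). NR4A1 stood at 55.2, 58.3 and 79.6 CPM against 34.99, 33.3 and 28.8 CPM, again without overlap and 1.99-fold higher in calvaria (log2 fold change 0.99, SE 0.209, adjusted p = 0.00350). Both genes were called in every other fit of the macaque libraries, including those without 1 library. Their log2 ratios of means were 1.09 and 0.73 among the G libraries and 2.46 and 1.47 in the T pair.

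Neither gene was called in mouse or passed the threshold in rat. Mouse ATF3 was at 1.92 and 3.66 CPM in calvaria and 3.84 and 2.94 CPM in tibia (log2 fold change -0.30, SE 0.481, edgeR adjusted p = 0.825). Mouse NR4A1 was at 10.6 and 6.71 CPM in calvaria and 8.08 and 10.1 CPM in tibia (-0.07, SE 0.348, adjusted p = 0.959). Rat ATF3 had 30 reads in calvaria and 38 in tibia and rat NR4A1 76 and 72, with log2 ratios of -0.55 and -0.14 and intervals of -1.30 to 0.17 and -0.63 to 0.34.

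Counted together, macaque had 4 of 7 members called, all higher in calvaria (FOSB, EGR1, ATF3 and NR4A1). Over all 18894 genes tested 19.8% were called, 10.3% toward calvaria and 9.47% toward tibia (16.4% by the exact test and 18.7% by DESeq2). With the pairs as a block 3 of 7 were called, and without 1 library 2 or 3. In FOSB, FOSL2, ATF3 and NR4A1 the sites did not overlap, as in 24.9% of all genes. FOSB had to lie higher in calvaria once it passed the filter, so the count is a description. The median log2 fold change of the 7 was 0.99, also with FOSB at its bound of 1.59, beside 0.03 over all genes. In mouse the median of the 10 was 0.14 beside 0.05, and in rat it was -0.44 beside -0.29. Scaling by library size alone, without TMM factors, moved the median of all macaque genes from 0.03 to -0.18 and the split of called genes from 1952 for calvaria and 1790 for tibia to 1365 and 3098. ATF3 and NR4A1 stayed higher in calvaria and called under that scaling, and EGR1 did not stay called (0.29, adjusted p = 0.461).

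**Figure D3:**
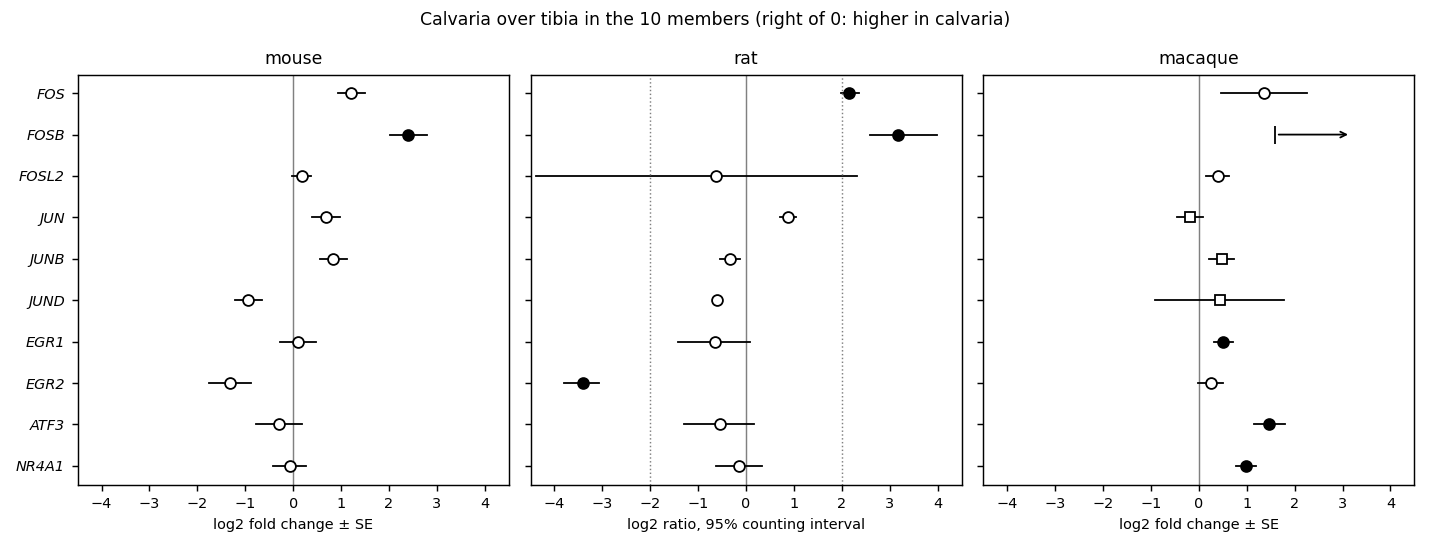
Calvaria over tibia on the log2 scale for the 10 members. Mouse and macaque points are fitted log2 fold changes ± SE with filled points called and squares for rows listed under LOC symbols, rat points are log2 ratios with a 95% counting interval and dotted lines at the threshold of 2, and the macaque FOSB arrow starts at its lower bound of 1.59. FOSB lies right of 0 in mouse and rat. In macaque it had 0 tibia reads and entered through its calvaria reads alone, so its side there is a description.

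A test of the species by site term over the 10 mouse and macaque libraries asked whether a member's site difference differed between these species. None of the 7 members was called by edgeR, against 4.89% of 11565 genes tested. An unadjusted p under 0.05 was found for 3 of the 7 members and for 1581 of the 11565 genes. The site difference of macaque minus that of mouse was 1.77 on the log2 scale for ATF3 (SE 0.673, adjusted p = 0.270), 1.58 for EGR2 (SE 0.538, adjusted p = 0.216) and 1.08 for NR4A1 (SE 0.368, adjusted p = 0.216). A difference between the species is therefore not shown for any member. Species cannot be told apart from sequencing lane, genome and annotation in this design.

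FOSB was then set against the other members within each library, which needs no scaling between libraries. The measure was the log2 ratio of FOSB reads to those of another member, with 0.5 reads added to each. Mouse libraries M4 and M8 had 14.9 and 7.99 FOS reads for each FOSB read, and M5 and M7 had 20.6 and 31.4. For each EGR2 read there were 1.72 and 2.95 FOSB reads in calvaria and 0.260 and 0.116 in tibia, not corrected for length. The ratio was higher in mouse calvaria against all 9 other members, without overlap between libraries, by 1.22 on the log2 scale against FOS, 1.58 against JUNB, 1.75 against JUN, 2.23 against FOSL2, 2.41 against EGR1, 2.51 against NR4A1, 2.74 against ATF3, 3.39 against JUND and 3.69 against EGR2. The mean over the 9 was -2.31 and -1.59 in calvaria and -4.10 and -4.58 in tibia, a difference of 2.39 (pooled SD 0.433). With 2 libraries a site an exact permutation test cannot go below p = 0.33, so none was run. The same FOSB counts enter all 9 ratios, which are therefore not independent.

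In rat the mean log2 ratio of FOSB to the other 9 was 0.69 in calvaria and -2.90 in tibia, a difference of 3.59. The difference was smallest against FOS, at 1.05, and greatest against EGR2, at 6.63. The difference against FOS was thus the smallest of the 9 in both rodents. In macaque the mean over the 6 other members was -5.47, -7.16 and -6.65 in G1, G3 and T1 and -8.56, -8.61 and -7.98 in G2, G4 and T2, a difference of 1.96 (pooled SD 0.658). Every macaque tibia ratio rests on 0 FOSB reads and on the 0.5 reads added, and FOSB entered through its calvaria reads alone, so these differences are a description and no p is drawn from them. Against FOS and ATF3 the macaque sites overlapped, with differences of 1.41 and 1.22.

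**Figure D4:**
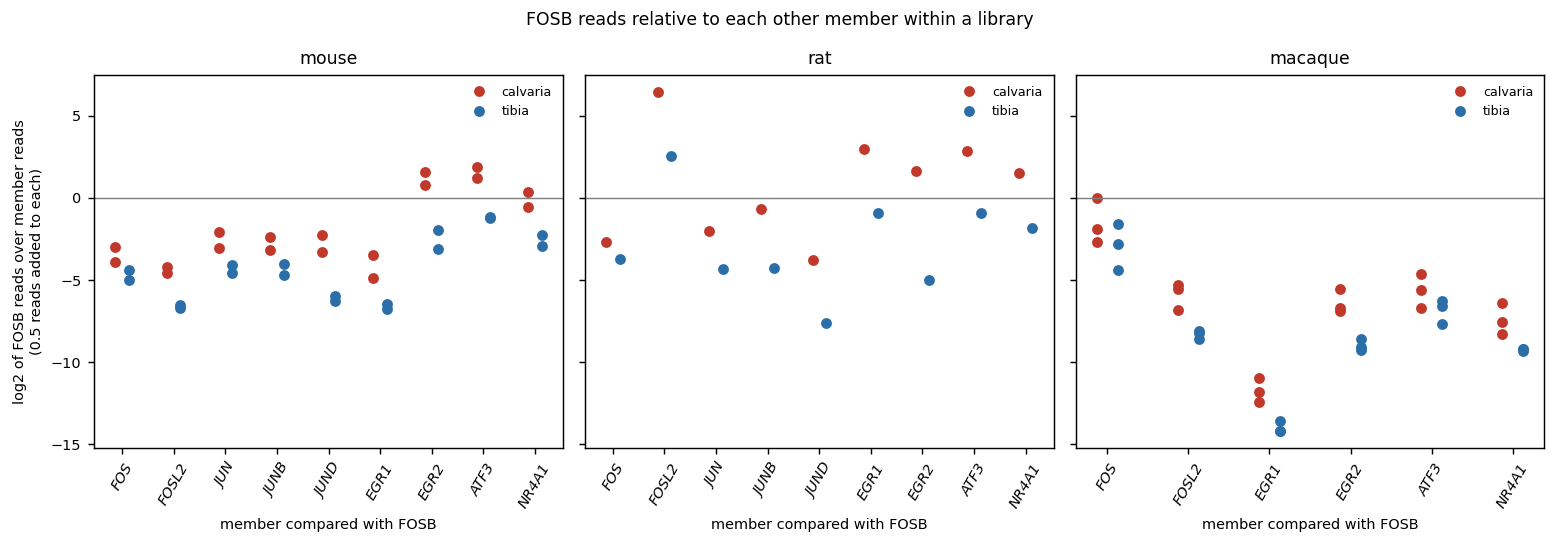
Log2 of FOSB reads over the reads of each other member in the same library (0.5 reads added to each), calvaria in red and tibia in blue. In mouse and rat every calvaria point lies above the tibia points of the same member, and in macaque the sites overlap for FOS and ATF3.

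To compare genes with each other, levels were taken per length, as CPM per kilobase of exon. In mouse calvaria EGR1 led at 50.5 ± 26.7 (SD, n = 2), followed by FOS at 42.2 ± 13.01, JUNB at 30.0 ± 8.07 and FOSL2 at 27.8 ± 1.28, and neighbours in this order overlapped. JUND at 19.3 and JUN at 15.3 came next, and FOSB at 1.99, NR4A1 at 1.71, ATF3 at 1.41 and EGR2 at 0.911 formed a low group in which neighbours also overlapped. In mouse tibia the order was EGR1 at 47.2, JUND at 36.8, FOSL2 at 24.6, FOS at 18.2, JUNB at 16.8 and JUN at 9.45, and FOSB was last at 0.371, below ATF3 at 1.72 without overlap. FOSB thus ranked 7 of 10 in mouse calvaria and 10 of 10 in mouse tibia.

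Rat libraries were led by JUND, at 129.1 CPM per kilobase in calvaria and 195.3 in tibia. FOS followed in calvaria at 63.3, while in tibia EGR2 at 17.9 and JUNB at 17.9 stood above FOS at 14.1. Macaque libraries were led by EGR1, at 406.1 ± 76.7 (SD, n = 3) in calvaria and 284.8 ± 83.1 in tibia, then by the LOC rows of JUNB at 236.6 and 170.6 and JUN at 84.5 and 96.2. The macaque rows listed as FOS and FOSB stood at 1.14 and 0.349 CPM per kilobase in calvaria. Reads of these genes on any row under another name are missed, so these are levels of the rows and not of the genes. Models of 1143 and 1042 bases also make these levels per length uncertain. The same holds for the short rows of rat FOSL2 and EGR1.

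The genes around AP-1 were read from 6 lists with 93 genes in all, of which 90 were tested in mouse, 79 in macaque and 88 in rat. Mouse had 0 called by the edgeR quasi-likelihood test and 15 with an unadjusted p under 0.05 (7 higher in calvaria and 8 in tibia). Of all 22339 mouse genes, 0.443% were called by that test and 1582 had an unadjusted p under 0.05. The edgeR exact test called 3 of the mouse list genes and DESeq2 called 3, beside 2.02% and 2.09% of all mouse genes. In macaque 25 were called with calvaria higher and 7 with tibia higher, and rat had 1 ratio past the threshold toward calvaria and 8 toward tibia. Beside these counts, 10.3% of all macaque genes were called toward calvaria and 9.47% toward tibia, and 1.55% and 8.14% of all rat genes were past the threshold, so that the rat counts lie near the background. The 9 rat genes past the threshold, and EGR3 in mouse, are named here after their values were seen. The median log2 fold change over the lists was -0.02 in mouse and 0.33 in macaque, and the median ratio was -0.22 in rat.

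Among AP-1 and ATF partners, 9 were tested in macaque, with 2 called toward calvaria and 1 toward tibia (10.3% and 9.47% of all macaque genes). BATF, a leucine zipper partner of JUN proteins in immune cells, was at 8.60 to 11.2 CPM in calvaria and 2.05 to 4.85 CPM in tibia (log2 fold change 1.505, SE 0.359, edgeR adjusted p = 0.00929). MAFG, a small MAF protein, was at 119.0 to 148.7 against 74.8 to 88.2 CPM (0.65, SE 0.181, adjusted p = 0.0250). ATF2, a JUN partner activated by stress kinases, was lower in calvaria at 29.0 to 38.7 against 44.6 to 66.2 CPM (-0.70, SE 0.214, adjusted p = 0.0422), and lost its call without G2 (0.269). None of the 11 tested in mouse was called. Rat MAFF and BATF2 were past the threshold toward tibia, with log2 ratios of -2.88 and -2.68.

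Other immediate early transcription factors included 6 of 13 called in macaque, all higher in calvaria, the direction in which 10.3% of all genes were called. NR4A3, a receptor of the same family as NR4A1, showed the largest fold change of the list, at 10.2 to 14.8 CPM in calvaria and 1.26 to 2.84 CPM in tibia (2.63, SE 0.365, edgeR adjusted p = 5.94e-05). IER5, a serum-induced regulator of the heat shock response, was at 202.1 to 267.6 against 111.5 to 121.5 CPM (1.00, SE 0.175, adjusted p = 0.000614), and MYC, a regulator of growth, at 19.0 to 31.1 against 8.15 to 11.4 CPM (1.29, SE 0.263, adjusted p = 0.00270). In rat EGR3, a relative of EGR2, was the 1 gene past the threshold, with a log2 ratio of -3.03 toward tibia. In mouse EGR3 had a log2 fold change of -2.05 (SE 0.433) and an adjusted p of 0.348, which was not called.

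Of the other immediate early and feedback genes, macaque had 23 tested, 8 of them called with calvaria higher and 5 with tibia higher (10.3% and 9.47% of all macaque genes). DUSP5, a nuclear phosphatase of ERK, was at 159.3 to 208.2 CPM in calvaria and 45.0 to 59.0 CPM in tibia (1.87, SE 0.191, edgeR adjusted p = 1.93e-06). GADD45A, a stress-induced growth arrest gene, was at 169.8 to 200.05 against 60.8 to 78.8 CPM (1.34, SE 0.183, adjusted p = 4.66e-05), and TRIB1, a pseudokinase, at 91.0 to 109.4 against 34.3 to 44.6 CPM (1.35, SE 0.193, adjusted p = 8.26e-05). Higher in macaque tibia were CTGF, a matricellular target of YAP (-0.87, adjusted p = 0.00769), NAB1, a corepressor that binds EGR proteins (-0.52, adjusted p = 0.0648, lost without G2 or T1), and DUSP6, a cytoplasmic phosphatase of ERK (-0.51, adjusted p = 0.159). The DUSP6 sites overlapped, and its call was lost in 7 of 17 other fits. In rat CTGF was 82.4 CPM in calvaria and 659.0 in tibia (log2 ratio -2.999), and TRIB1 was 19.6 against 3.27 CPM (2.55), while ARC and PLK2 were past the threshold toward tibia at -2.92 and -2.55. None of the 26 tested in mouse was called.

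Of 16 upstream kinases and factors tested in macaque, 1 was called in each direction (10.3% and 9.47% of all genes), and the median log2 fold change was 0.03. RPS6KA1, a kinase downstream of ERK, was higher in calvaria (1.997, SE 0.298, edgeR adjusted p = 0.000126), and MKL2, a coactivator of serum response factor, was higher in tibia (-0.87, SE 0.211, adjusted p = 0.0107). Among AP-1 target genes 2 of 9 were called in macaque, both higher in calvaria, a share near the 19.8% of all genes called. These were HMOX1, which degrades heme, at 41.6 to 122.9 against 18.3 to 24.4 CPM (2.09, SE 0.296, adjusted p = 7.35e-05), and MMP9, a gelatinase abundant in neutrophils and osteoclasts, at 1059 to 1291 against 314.9 to 1252 CPM (0.78, SE 0.304, adjusted p = 0.121). MMP9 lost its call in 9 of 17 other fits. In rat MMP3, a matrix metalloproteinase, was past the threshold toward tibia with a log2 ratio of -2.31 at 0.210 against 1.31 CPM.

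Heat shock genes were listed because they mark a stress response that also induces ATF3. In macaque 6 of 9 were called, all of them higher in calvaria, the direction in which 10.3% of all genes were called, and the count was 6 in each other fit as well. The median log2 fold change of the list was 1.66 in macaque, 0.07 in mouse and 0.27 in rat, where HSPB1, a small heat shock protein, was past the threshold toward tibia (-2.64). HSPH1, a co-chaperone, was at 1238 to 2116 CPM in calvaria and 251.9 to 257.7 CPM in tibia (2.83, SE 0.198, edgeR adjusted p = 2.43e-08), DNAJB1, which works with HSP70, at 865.3 to 1531 against 124.5 to 176.4 CPM (2.90, SE 0.213, adjusted p = 3.77e-08), and HSPD1, a mitochondrial chaperone, at 115.5 to 166.0 against 42.2 to 45.5 CPM (1.76, SE 0.195, adjusted p = 4.96e-06). The summed level of the 9 genes was 12338, 14641 and 9723 CPM in G1, G3 and T1 and 5373, 5663 and 6130 CPM in G2, G4 and T2. In mouse the 11 genes summed to 837.3 and 578.6 CPM in calvaria and 738.4 and 787.4 CPM in tibia, which overlapped. The heat shock sum was thus higher in every macaque calvaria library than in any tibia library, as ATF3 and NR4A1 were. T1 had the lowest heat shock sum of the calvaria libraries with the highest ATF3 and NR4A1. T2 had the highest sum of the tibia libraries with the lowest ATF3 and NR4A1. An order over 3 libraries a site cannot decide how these levels go together. The part of heat shock in the 2 genes' site difference was not tested.

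**Figure D5:**
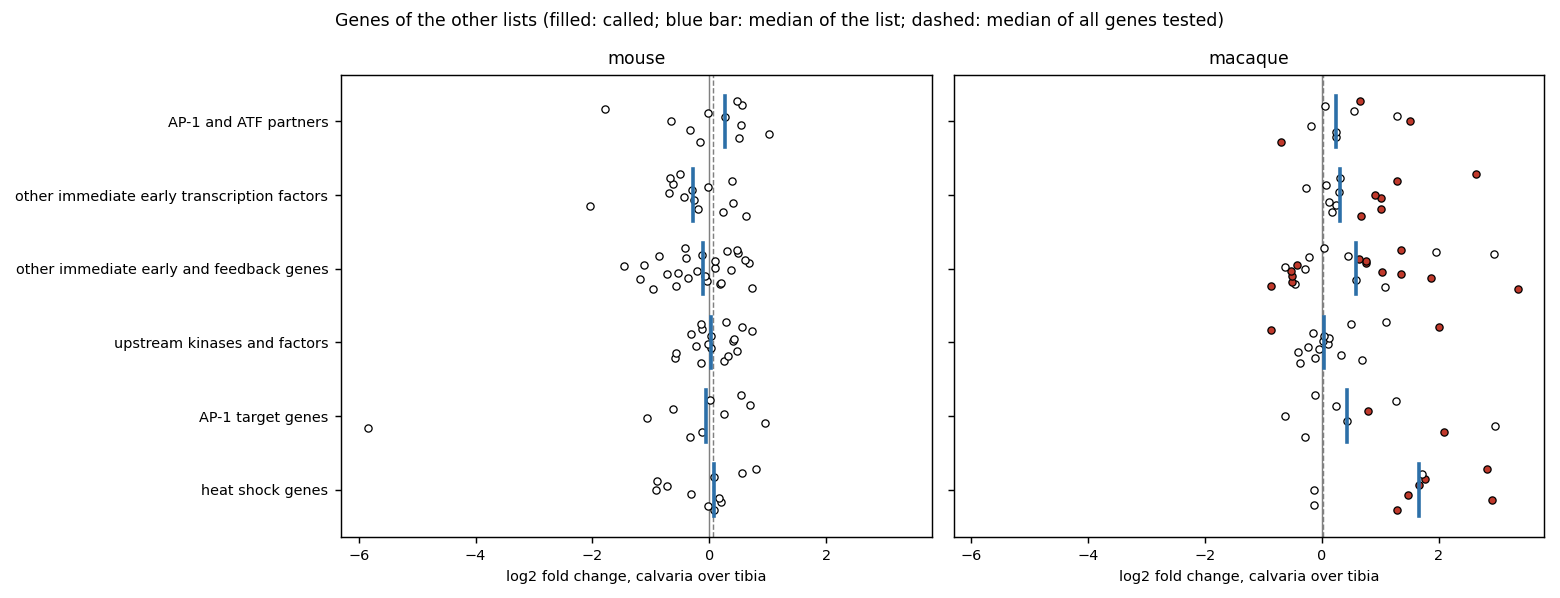
Fitted log2 fold change (calvaria over tibia) of each gene in the 6 other lists in mouse and macaque, with called genes filled in red, the median of each list as a blue bar and the median of all genes tested as a dashed line. No mouse gene is filled, and the heat shock list of macaque has a median of 1.66 with 6 genes called.

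Genes with the pattern most like FOSB were sought over the 10 mouse and macaque libraries, by Pearson r of log2(CPM + 1) after each species was centred on its own mean, among 8341 genes. The highest were MYH8, a myosin heavy chain of developing muscle (r = 0.923), B3GNT7 (0.914), CUEDC1 (0.909), CDK5RAP2 (0.906) and GALNT10 (0.901). FOS and JUND were not compared, because their macaque means are under the minimum of 1 CPM. Of the 7 other members that were, FOSL2 (0.523) and JUNB (0.507) were nearest, EGR2 was at -0.609, and none was among the 5. The 4 mouse libraries held 89.4% of the sum of squares of FOSB, so the order describes mainly 4 points that share 2 sites. MYH8 had 630 and 284 reads in M4 and M8 and 0 and 2 reads in M5 and M7. The 4 muscle markers ACTA1, CKM, TNNT3 and MYH2 summed to 509.7 to 1219 CPM in mouse calvaria and 124.0 to 762.5 CPM in mouse tibia, which overlapped, and to 5.47 CPM in rat calvaria and 371.8 CPM in rat tibia. CKM was at 0 in the rat calvaria library, and also at both macaque sites. Rat had 1 library a site, and the part of muscle in the FOSB difference was not tested in any species.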

How the data were processed

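RNA of mouse, rat and macaque calvaria and tibia was sequenced as single reads of 125 bases. The deposited tables hold raw read counts per gene that the authors obtained with HTSeq-count without strand, on mm10, rn6 and MacaM. The labels' processing notes name BWA 0.7.10-r789 as the aligner and the methods name HISAT2 2.0.5. The deposited tables also hold a signal column that the authors made by multiplying the counts of a library by 1 constant, which was not used. Rows naming no gene held 0.00261% to 0.0663% of reads and were left out.

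Each species was fitted with the edgeR 4.0.16 quasi-likelihood test in R 4.3.3 (TMM, every symbol with at least 1 read in some library, site as the only term, Benjamini-Hochberg adjustment over all genes tested), with calls at an adjusted p below 0.2 and a fold change above 1.1. This filter differs from that of the methods, a read in every library, which was an alternative. Standard errors are the log2 fold change over the square root of F. For rat, with 1 library a site, log2 ratios of CPM with 1 read added were taken, past 2 in size. Species by site was tested over the 10 mouse and macaque libraries. The exact permutation test of the FOSB ratios in macaque was left unused, since FOSB had 0 reads in every macaque tibia library. Alternatives covered scaling, filters, DESeq2 1.42.0, the edgeR exact test and older quasi-likelihood estimate, blocks and leaving out libraries. The test scripts were tested on simulated data.

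The methods give calvaria and tibia as pairs from the same animals, but the labels do not name the pairs. Deviations from the site means correlated at 0.203, 0.282 and 0.446 within the neighbouring macaque pairs and at -0.351 to 0.0898 otherwise (12305 genes), so these were taken as pairs. The same check cannot tell mouse pairs apart (0.016 in size).

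The members, the gene lists and the markers were chosen with earlier results of these data known. Of the other lists, up to 3 genes in each direction with the smallest macaque p were named among those called. Symbols of LOC rows in macaque came from RefSeq names of a newer assembly by gene ID (5939 of 17111 rows), which gave names only. A LOC row whose gene ID gave a symbol already listed kept its LOC name, so its reads were not added to that symbol. Mouse sequences and positions came from GRCm38 with GENCODE vM21. Total counts of 13934813 to 16826535 (mouse), 12233256 to 14255423 (rat) and 7951585 to 10342459 (macaque) set the precision, and intervals cover counting error only.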

Additional observations from a re-analysis of the deposited data

Results flagged for a closer look

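For 9 genes of the other lists the site difference itself differed between macaque and mouse, by the species by site term of the edgeR quasi-likelihood test with a false discovery rate under 0.2. The macaque log2 fold change exceeded that of mouse by 2.72 for DNAJB1 (adjusted p = 0.0132), 2.03 for HSPH1 (0.0465) and 1.70 for HSPD1 (0.0450) among the heat shock genes. Among immediate early and feedback genes the excess was 3.17 for NR4A3 (0.0590), 1.92 for MYC (0.0901), 1.44 for GADD45A (0.0351), 1.28 for IER5 (0.0533) and 1.06 for TRIB1 (0.132). For the AP-1 target HMOX1 it was 2.23 (0.0666). Over all 11565 genes tested 4.89% were called by this term. Of the other genes named for a call in macaque, DUSP5 had no value of this term and the rest were not called. Genes named from the lists only for their rat or mouse values were not read with this term. The 9 genes were named because they were called in macaque, which favours an excess in macaque, so the count is a description. Species cannot be told apart from lane, genome and annotation.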

How the results depend on the processing

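In mouse the number of members called was 0 under library size alone, a read in every library, symbols shared by the 3 species, no filter and filterByExpr, and 0 under both replicate blocks, which assume pairs the labels do not name. It was 2 with DESeq2, the edgeR exact test and the older quasi-likelihood estimate, and it ran from 0 to 6 when 1 library was left out (0 without M5 or M7, 6 without M4 or M8). Over all mouse genes the 99 calls became 10 with a read in every library, 26 over shared symbols, 42 with filterByExpr and 42 with no filter, 468, 451 and 510 with DESeq2, the exact test and the older estimate, 35 and 18 with the blocks, and 2 to 6639 without 1 library. The cause was not tested.

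Mouse directions that turned were EGR1, at -0.0063 and -0.0069 under the blocks and -0.60 to 0.55 without 1 library, ATF3 at -0.84 to 0.069 and NR4A1 at -0.46 to 0.21. In macaque 2 members were called under library size alone and 2 to 3 without 1 library. Macaque values that turned without 1 library ran from -1.34 to 1.12 for JUND, -0.52 to 0.044 for JUN and -0.050 to 0.46 for EGR2. Members called in the species by site term ran from 0 to 2, with FOS at -0.91 to 1.40, EGR1 at -0.050 to 1.08 and JUND at -0.44 to 2.08. All-gene calls of that term fell from 566 to as few as 49 and rose to 1392 without 1 library, and macaque calls ran from 2134 to 5015.

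The contrast of FOSB with the other members moved to 1.67 in mouse and 5.28 in rat with the median in place of the mean, and ran from 2.03 to 2.75 in mouse and 1.48 to 2.33 in macaque without 1 library. Mouse list genes called were 3 with DESeq2, the exact test and the older estimate, and 0 to 49 without 1 library. Subtracting the median of genes near in length, an alternative added after seeing the data like the LOC rows, turned no member. With the macaque block no call of a member or of a list gene named here changed other than FOSB and JUNB. Macaque FOSB could not be tested with a read in every library or with filterByExpr, and DESeq2 gave it no adjusted p. Low counts limit macaque FOS, FOSB and JUND and rat FOSL2.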
